A study of Homo sapiens with 15 samples.

Results

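The replication-dependent histone genes of MRC-5 cells, a line of human fetal lung fibroblasts, were followed through replicative senescence. All protein-coding genes named H1-1 to H1-6, or H2AC, H2BC, H3C or H4C with a number, were taken as members. There are 69 such genes in the GENCODE 44 annotation and 65 of them have a row in the count table of 57227 genes. These are 6 H1, 15 H2A, 18 H2B, 11 H3 and 15 H4 genes. RNA-seq libraries were made from 5 conditions with 3 replicates each. Young cells at population doubling (PD) 30 carried an empty pWPIR-GFP vector, a vector expressing the telomere protein TRF2, or the empty vector together with siLMNB1, an siRNA pool against the Lamin B1 mRNA. Their RNA was taken 4 days after the siRNA, which followed infection by 2 days. Senescent cells carried the empty vector at PD 71 or the TRF2 vector at PD 75, and the latter had expressed TRF2 for about 25 PD. A control siRNA is named in the labels of every condition except siLMNB1. All conditions come from a single cell line. The study calls the sequenced replicates of young and senescent cells biological, and the sources used here do not say whether they were grown as separate cultures throughout, so p-values measure the spread between these samples.

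Histones package DNA into nucleosomes, in which an H3-H4 tetramer is flanked by H2A-H2B dimers, while H1 binds the linker DNA between them. The genes studied here supply most of the new histones that a cell needs when it copies its DNA, and cells are known to make them mainly in S phase. Their mRNAs are unusual in that they normally end just after a short stem-loop instead of carrying a poly(A) tail. The stem-loop is bound by SLBP, and cleavage after it needs the U7 snRNP. Some of these genes can also be read through to a poly(A) signal further downstream, which leaves a longer polyadenylated mRNA. Whether the libraries were made from polyadenylated RNA is not given in the sources used here, and this bears on which of the mRNA forms were counted.

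The stem-loop that sets these genes apart was read from the GRCh38 genome. A search for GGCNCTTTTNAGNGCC, on the gene's own strand within 1000 bases after the stop codon, with the first N held to C or T, the second to A, C or T and the last to A or G, found a match in 65 of the 69 members, each 26 to 71 bases after the stop. The same search matched 4 of 19977 other protein-coding genes (0.02%). Members without these letters in the window were H2AC15, H2BC10, H3C6 and H4C13. The form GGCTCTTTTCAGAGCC occurred in 40 members, and the H4 genes with a match all carried a C as the fourth base, in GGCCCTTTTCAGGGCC or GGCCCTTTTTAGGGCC. The stem-loops of 7 members that the results turn on are printed with 5 flanking bases in lower case and the stem-loop in capitals, as DNA and 5′ to 3′.
H1-2: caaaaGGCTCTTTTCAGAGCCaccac
H2AC6: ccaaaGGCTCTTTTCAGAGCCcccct
H2AC20: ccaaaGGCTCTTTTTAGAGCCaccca
H2BC12: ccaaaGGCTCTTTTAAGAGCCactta
H2BC21: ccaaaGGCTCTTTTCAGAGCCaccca
H4C8: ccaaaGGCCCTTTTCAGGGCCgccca
H4C9: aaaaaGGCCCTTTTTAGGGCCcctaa
H1-2, H2AC6 and H2BC21, which rose in senescent cells, have the commonest form, as does H2BC9, which fell, and H2AC20, which also fell, is the 1 member with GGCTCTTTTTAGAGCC.

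Many H2A and H2B genes lie head to head and share the DNA between their starts. There were 13 pairs of members with starts on opposite strands and at most 500 bases apart, of which 12 joined an H2A and an H2B gene, at distances of 170 to 251 bases. The DNA between the starts of a pair that moved in opposite directions, H2BC21 and H2AC20 (chr1:149886683-149886917), and of a pair that moved together, H2BC4 and H2AC6 (chr6:26123927-26124144), is printed from the RefSeq promoter sequences of GRCh38.p14 on the plus strand, along which the H2B gene lies to the left and the H2A gene to the right. Capitals mark the octamer ATTTGCAT, CCAAT and TATAAA on either strand.
H2BC21 to H2AC20: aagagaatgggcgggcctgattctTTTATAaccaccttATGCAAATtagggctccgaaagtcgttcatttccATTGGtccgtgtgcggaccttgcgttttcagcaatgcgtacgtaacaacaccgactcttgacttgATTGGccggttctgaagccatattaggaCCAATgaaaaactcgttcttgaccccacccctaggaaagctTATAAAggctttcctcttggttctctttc
H2BC4 to H2AC6: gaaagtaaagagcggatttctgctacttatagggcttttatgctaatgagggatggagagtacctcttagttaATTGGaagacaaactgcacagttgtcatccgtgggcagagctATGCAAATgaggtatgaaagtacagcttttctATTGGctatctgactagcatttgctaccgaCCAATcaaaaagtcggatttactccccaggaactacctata
Both stretches held 1 octamer, read on the minus strand, and 3 CCAAT sequences. The DNA between H2BC21 and H2AC20 also held 1 TATAAA on each strand, and these letters were not found between H2BC4 and H2AC6. Promoters, from 250 bases before to 50 bases after the start, were matched for 60 of the 65 members. The octamer on either strand was present in 11 of 14 H2A, 14 of 18 H2B, 1 of 9 H3, 0 of 6 H1 and 0 of 13 H4 promoters, and in 1.77% of all 35116 promoters. CCAAT on either strand was present in all matched H1, H2A, H2B and H3 promoters but in 3 of 13 H4 promoters, and in 34.6% of all promoters. TATAAA on the gene's strand was found in 3 of 6 H1, 9 of 14 H2A, 9 of 18 H2B, 6 of 9 H3 and 7 of 13 H4 promoters, and in 7.33% of all promoters. A match of letters is a description and not a bound site. Of the 20 members that rose in senescent cells with the empty vector, 10 held the octamer, and both members that fell held it. The members that fell are an H2A and an H2B gene, the classes in which the octamer is common. The members that rose include H1 and H4 genes, where it was absent. A link between the octamer and the direction of change was not tested.

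The libraries held between 26725885 and 43116046 counts. LMNB1, which encodes Lamin B1, lay at 58.6 to 61.0 CPM (counts scaled to the library's total and normalised between libraries with TMM) in young cells with the empty vector and at 2.36 to 2.91 with siLMNB1, and it also fell in senescent cells, with a mean of 5.13 ± 0.526 CPM (SD, n = 3). TERF2, which encodes TRF2, lay at 21.9 to 25.5 CPM in young cells with the empty vector, at 128, 307 and 149 in the young TRF2 libraries and at 210 to 285 in the senescent ones. The second young TRF2 library had both the highest TERF2 and the highest level of the proliferation gene MKI67, at 111 CPM against 43.7 and 49.9 in the other two. All 10 fibroblast markers averaged above 10 CPM. The summed level of 6 epithelial markers was 1.62 to 9.87 CPM in young and 1.12 to 2.20 in senescent cells with the empty vector, that of 5 endothelial markers 29.3 to 33.1 and 23.2 to 60.9, and that of 5 smooth muscle and pericyte markers 234 to 260 and 260 to 401. The 6 leukocyte markers summed to 0.117 to 0.418 CPM in young and 1.56 to 2.79 in senescent cells with the empty vector, which was mostly CD14, while the defining markers PTPRC and CD3E lay at or near 0 throughout. The labels describe all 6 senescent libraries as a reanalysis of data deposited earlier, so the deposit and the senescent state cannot be told apart in any comparison of senescent with young cells.

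In senescent cells with the empty vector, the histone genes as a group stood at a higher level than in young cells. The summed level of all 65 genes was 130, 130 and 124 CPM in the young libraries and 384, 447 and 526 in the senescent ones. The lowest senescent library thus lay far above the highest young one, and the mean rose from 128 ± 3.36 to 452 ± 70.8 CPM (SD, n = 3), a ratio of 3.54. In a bulk sample a change in the number of cells that express a gene and in the RNA per cell cannot be told apart. All 5 classes shared the direction. The ratio of the means was 3.00 for H1, 4.17 for H2A, 3.44 for H2B, 1.90 for H3 and 3.10 for H4, with no overlap between the young and senescent libraries in any class. These sums were made over members chosen with results known and were not tested.

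**Figure D1:**
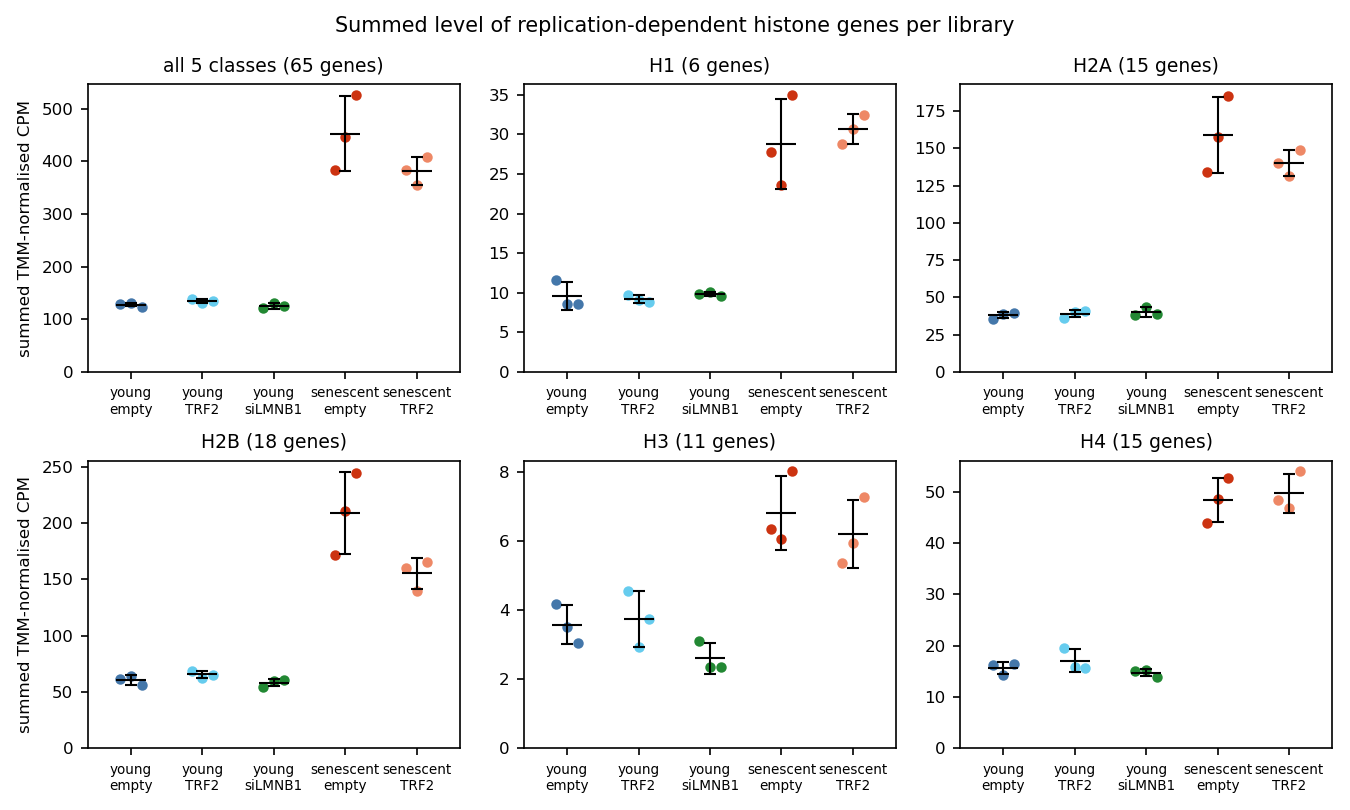
Summed TMM-normalised CPM (y axis, linear, from 0) of the replication-dependent histone genes in each library of the 5 conditions (x axis), for all 65 genes and for each class, with points for libraries and bars for the mean and SD of 3. The senescent libraries lie above all young libraries in each class, and the sum over all genes lies between 120 and 139 CPM in the 9 young libraries and between 354 and 526 in the 6 senescent ones.

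Counts were concentrated in few members. H2AC6 made up 29.1% of the mean level of the group over all libraries, H2BC12 19.9% and H2BC21 13.7%, and with H1-2 and H4C9 the leading 5 made up 75.3%. A filter on low counts left 28 members for testing, of 15799 genes in all: H1-2, 6 H2A, 11 H2B, 3 H3 and 7 H4 genes. The filter can keep a gene for its level in a single condition. Of the 28, 17 had at least 10 counts in every young and every senescent library with the empty vector, 5 only in the senescent and 2 only in the young libraries. Of the 28 tested, 20 rose and 2 fell in senescent cells with the empty vector (quasi-likelihood test in edgeR with Benjamini-Hochberg adjustment, p under 0.05 and a change of 1 or more on the log2 scale), while 16.7% of all tested genes rose and 11.8% fell. The 5 members that had 10 counts only in the senescent libraries, H2BC6, H2BC18, H4C5, H4C14 and H4C16, are all among the 20 that rose. The 2 that had them only in the young libraries, H2AC20 and H2BC9, are the 2 that fell. These calls follow the group in which the members had enough counts, so they add no separate support for either direction. The median log2 fold change was 1.59 over the tested members and 0.02 over all tested genes.

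H1-2 was the only H1 gene with enough counts to test. It lay at 11.4, 8.25 and 8.19 CPM in the young and at 27.8, 23.3 and 34.7 CPM in the senescent libraries with the empty vector. The groups did not overlap and the level rose 3.09-fold (log2 fold change 1.63 ± 0.14, SE, adjusted p = 7.1e-08). H1-4 and H1-5 had at most 8 counts in any library and were not tested.

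Among the H2A genes 4 of 6 rose and 1 fell. H2AC6, the most abundant member by CPM, lay at 27.5, 29.6 and 30.6 CPM in young cells and at 117, 139 and 160 CPM in senescent cells. Its level rose 4.74-fold (log2 2.24 ± 0.11, adjusted p = 6.8e-11), with a wide gap between the groups. H2AC25 lay at 3.49 to 4.65 CPM in young and 9.44 to 16.7 CPM in senescent cells and rose 3.07-fold (adjusted p = 2.1e-06). H2AC8 rose 4.11-fold from a low level of 0.418 to 0.819 CPM. H2AC11 rose 2.18-fold, from 1.79 to 2.16 CPM to 4.02 to 5.07 CPM. H2AC13 lay at 0.446 to 1.29 CPM in young and 0.680 to 1.15 CPM in senescent cells, so that the groups overlapped (log2 0.15 ± 0.37).

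The H2B genes held the largest share of the counts, and 9 of 11 rose while 1 fell. H2BC12 was the member with the highest level per length, at 55.3 CPM per kb of exon in young and 184 in senescent cells. Its levels were 28.8, 26.8 and 26.5 CPM in the young and 75.3, 84.5 and 114 CPM in the senescent libraries, a 3.33-fold rise (log2 1.73 ± 0.13, adjusted p = 1.1e-08). H2BC21 lay at 18.2, 19.7 and 15.7 CPM in young and at 48.7, 70.5 and 69.0 CPM in senescent cells and rose 3.51-fold (adjusted p = 1.2e-08). Both abundant H2B genes thus showed no overlap between the groups.

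H2BC4 had the largest log2 fold change of the group, 2.35 ± 0.21 (adjusted p = 9.7e-08). It lay at 1.99, 3.41 and 3.16 CPM in young and at 13.7, 15.1 and 15.1 CPM in senescent cells. H2BC4 shares 30.9% of its exonic bases with genes on the opposite strand, among them HFE, and the strand setting of the counting is not given in the sources used here. H2BC5 rose 3.33-fold, from 4.95 to 6.31 CPM to 17.2 to 23.5 CPM. H2BC8, H2BC11, H2BC6, H2BC18 and H2BC15 also rose, with log2 fold changes of 2.16, 1.77, 1.89, 1.49 and 1.23. H2BC26 had 1 to 10 counts per young library and did not pass the test (log2 1.57 ± 0.84).

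H3 genes were few and low. H3C10, at 1.71, 1.47 and 0.856 CPM in young and 3.57, 2.96 and 4.34 CPM in senescent cells, was the one H3 gene of 3 that rose (2.68-fold, adjusted p = 2.4e-04). H3C6 lay at 1.41 to 1.73 CPM in young and 2.34 to 3.05 CPM in senescent cells, with a log2 fold change of 0.77 ± 0.26 that stayed under the threshold of 1 (adjusted p = 0.0167). H3C8 had at most 15 counts in these libraries and its groups overlapped.

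Of the 7 H4 genes 5 rose and none fell. H4C8 lay at 5.06, 4.29 and 5.10 CPM in young and at 22.1, 23.9 and 25.1 CPM in senescent cells, a 4.94-fold rise (log2 2.30 ± 0.12, adjusted p = 9.2e-11). H4C9, the most abundant H4 gene, rose 2.23-fold from 9.52, 8.34 and 9.75 CPM to 18.5, 20.1 and 23.0 CPM (adjusted p = 1.8e-06). H4C8 and H4C9 encode the same histone and both separated the groups fully. H4C5, H4C14 and H4C16 rose with log2 fold changes of 1.88, 1.85 and 1.48, and H4C16 lost its call without the second senescent or the second or the third young library. H4C11 and H4C12 had 4 to 15 counts in these libraries and did not pass the test, and their coding sequences are identical to each other.

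The 2 members that fell were both at low levels. They are 7.14% of the tested members, while 11.8% of all tested genes fell. H2AC20 lay at 1.26, 1.35 and 0.781 CPM in the young and at 0.372, 0.296 and 0.518 CPM in the senescent libraries with the empty vector. The groups did not overlap and the level fell 2.83-fold (log2 -1.50 ± 0.38, adjusted p = 0.00236), on 21 to 46 counts per young and 8 to 16 counts per senescent library. H2BC9 lay at 0.802, 1.15 and 0.856 CPM in young and at 0.186, 0.704 and 0.486 CPM in senescent cells (log2 -1.03 ± 0.42, adjusted p = 0.0425). The call for H2BC9 was lost without the first or the third senescent library or the second or the third young library with the empty vector, which left 1 member lower.

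**Figure D2:**
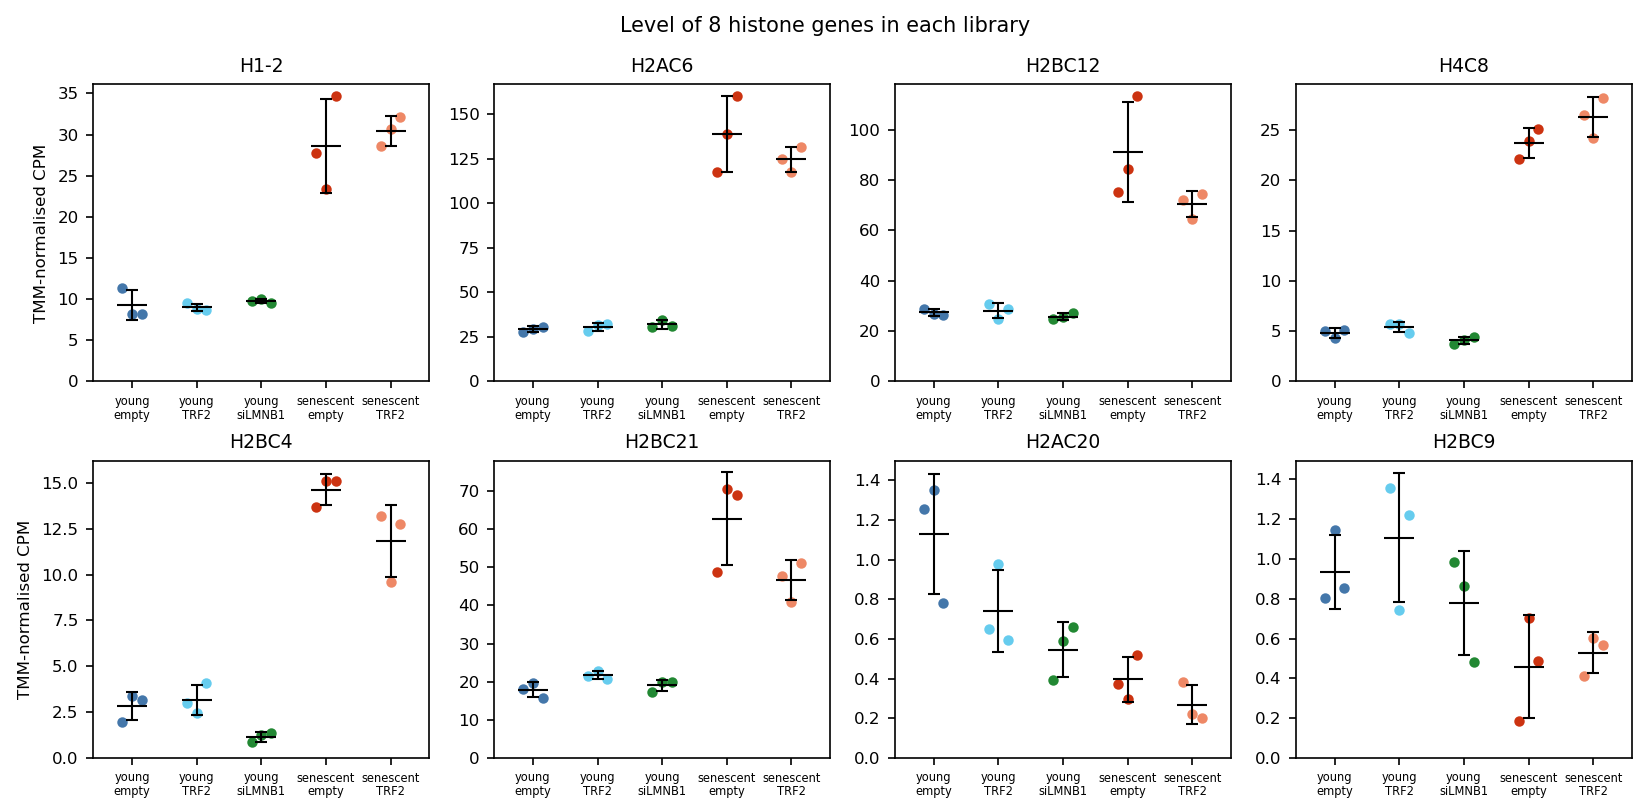
TMM-normalised CPM (y axes, linear, from 0, a scale for each gene) of 8 histone genes in each library of the 5 conditions (x axis), with points for libraries and bars for the mean and SD of 3. H1-2, H2AC6, H2BC12, H4C8, H2BC4 and H2BC21 are higher in all senescent than in all young libraries. H2AC20 and H2BC9 are lower in all senescent libraries than in the young libraries without siLMNB1, and their senescent values overlap with the siLMNB1 libraries.

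In cells expressing TRF2 most tested members were higher in senescent than in young cells as well. Between young and senescent cells with TRF2, 18 of the 28 tested members rose and 3 fell, against 11.9% and 12.1% of all tested genes, and the median log2 fold change was 1.19, against -0.02 over all tested genes. The summed level of the 65 genes was 139, 130 and 134 CPM in the young and 383, 354 and 408 CPM in the senescent TRF2 libraries, a ratio of the means of 2.84. All 28 tested members had the same sign in both senescence comparisons, which share no libraries, and 26 of 28 did when the fit held offsets for GC content and length, the exceptions being H2AC13 (log2 -0.77 and 0.53) and H4C12 (log2 -0.39 and 1.68). There were 16 members that rose in both, which is 80% of those that rose with the empty vector and 88.9% of those that rose with TRF2. Both comparisons set senescent libraries labelled as a reanalysis against young ones. The matching shares over all tested genes are not given here, so this agreement cannot be read as particular to the histone genes.

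H4C8 lay at 5.73, 5.73 and 4.82 CPM in young and 26.5, 24.2 and 28.2 CPM in senescent TRF2 cells (log2 2.27 ± 0.11, adjusted p = 7.6e-11). H2AC6 rose 4.05-fold, from 28.2 to 32.4 CPM to 117 to 132 CPM, and H1-2 rose 3.38-fold, from 8.67 to 9.51 CPM to 28.6 to 32.1 CPM. These abundant members separated the groups fully with either vector. H2BC12 rose 2.50-fold and H2BC21 2.15-fold, and H2BC12 lost its call with these offsets (log2 0.84), as did H2AC13. H4C12 had the largest log2 fold change, 2.38 ± 0.65, on 0 to 4 counts per young and 8 to 19 counts per senescent TRF2 library, and it did not pass the filter when the fit held the compared libraries alone. H2AC13 rose here (log2 1.12 ± 0.37), but not without the first young or the first senescent TRF2 library, and had not passed the test with the empty vector. H3C10 (log2 1.16) and H2BC5 (log2 1.04) lost their calls without the second and the third young TRF2 library, respectively. H2AC11, H2BC15, H4C16 and H4C9, which rose with the empty vector, had log2 fold changes of 0.71, 0.39, 0.88 and 0.96 with TRF2, and H4C9 passed the threshold without the first young or the first senescent TRF2 library.

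H2AC20 lay at 0.652, 0.979 and 0.595 CPM in young and at 0.382, 0.223 and 0.200 CPM in senescent TRF2 cells and fell 2.76-fold (log2 -1.46 ± 0.40, adjusted p = 0.00467). It and H2BC9 (log2 -1.06 ± 0.40, adjusted p = 0.031) fell with both vectors. The members that fell with TRF2 are 10.7% of those tested, near the 12.1% of all tested genes. H3C8, the third member that fell with TRF2 (log2 -2.10 ± 0.86, adjusted p = 0.0449), had 2 to 18 counts in these libraries, and its groups overlapped because the second young TRF2 library held 2 counts. DESeq2 did not call H3C8, and its call was also lost without the second senescent TRF2 library. H2AC14, which the filter had removed, was called lower by DESeq2 and by the fit without the filter. It had 0 counts in each senescent TRF2 library and 14, 1 and 4 in the young ones. Without the first or the third senescent or the first or the third young TRF2 library both H2BC9 and H3C8 lost their calls, which left H2AC20 as the 1 member lower.

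The vectors were also compared within each state. Between TRF2 and the empty vector in young cells 0 of the 28 members were called in either direction, with 2 at an unadjusted p below 0.05, and 0.0506% of all tested genes were called higher and 0.00633% lower. In senescent cells, where TRF2 and the empty vector also differ in PD (75 and 71), 0 members passed the log2 threshold of 1, where 0.88% of all tested genes were called higher and 2.16% lower. There 6 members had an unadjusted p below 0.05, and DESeq2 called 0 at this threshold in either contrast. In the same contrast 11 of 42 DNA replication genes and 4 of 11 proliferation genes were lower with TRF2. Without the fold threshold 3 members were lower in senescent cells with TRF2 than with the empty vector. The shares of all tested genes given above hold for calls at the threshold of 1. They cannot be set against this count or against the counts at an unadjusted p. H2BC5 lay at 12.2, 11.3 and 11.3 CPM with TRF2 against 17.7, 17.2 and 23.5 CPM (log2 -0.75 ± 0.13, adjusted p = 0.0026). H2AC11 lay at 2.61, 2.10 and 3.05 CPM against 4.16, 5.07 and 4.02 CPM (log2 -0.77 ± 0.18, adjusted p = 0.0134). H2BC21 lay at 47.8, 40.9 and 51.2 CPM against 48.7, 70.5 and 69.0 CPM and its groups overlapped (log2 -0.43 ± 0.13, adjusted p = 0.0464).

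The difference between the 2 senescence comparisons was tested as an interaction. 0 of the 28 members passed an adjusted p of 0.05, against 1.13% of all tested genes. At an unadjusted p below 0.05, to which this share does not apply, there were 3 members. H2BC21 (log2 -0.70 ± 0.19, adjusted p = 0.092) and H2BC5 (log2 -0.70 ± 0.20, adjusted p = 0.105) had the smallest p-values. DESeq2 called these 2 members, and the fit without the first senescent library with the empty vector called 3, the third being H2BC12. A p that misses the threshold does not show that these H2B genes rose equally with both vectors.

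**Figure D3:**
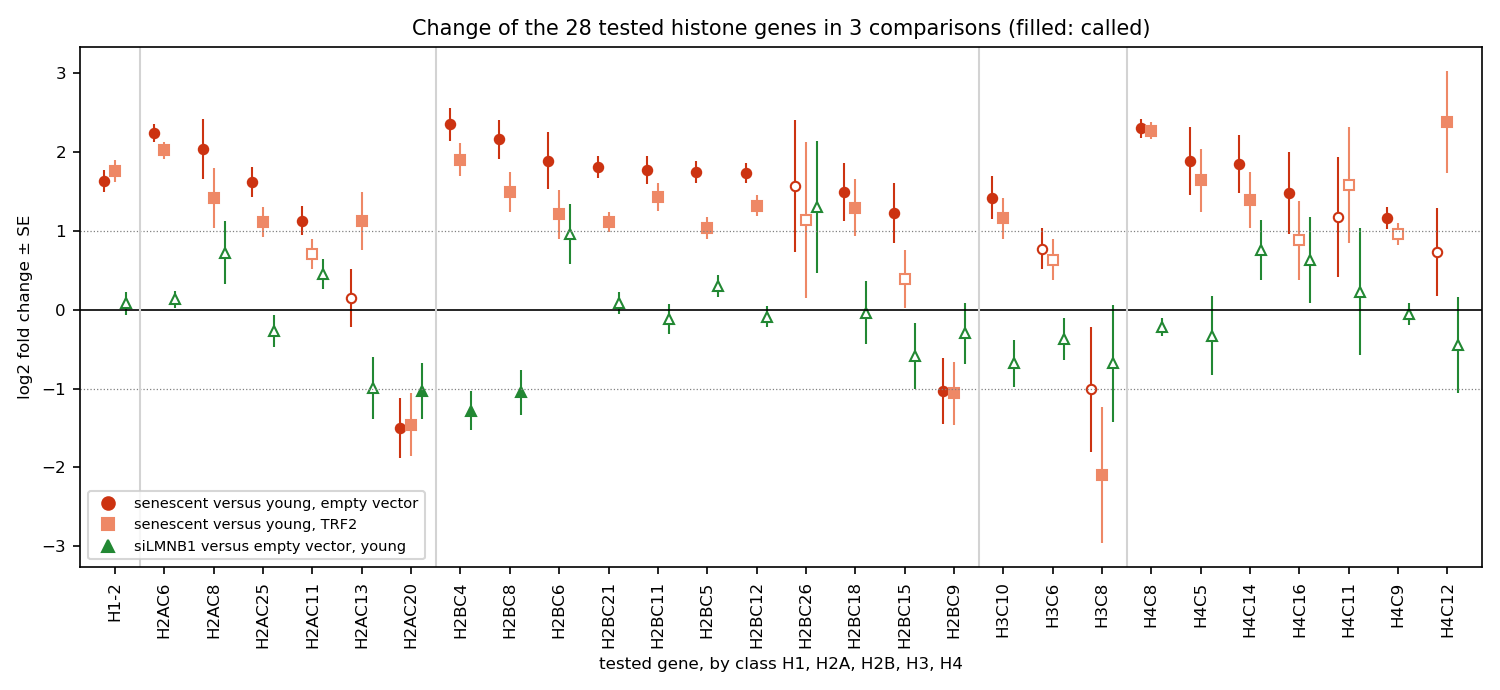
Log2 fold change with its SE (y axis) of each of the 28 tested histone genes (x axis, by class and then by change) in senescent versus young cells with the empty vector (circles) or TRF2 (squares) and in siLMNB1 versus empty vector in young cells (triangles), with filled symbols for called genes and dotted lines at 1 and -1. Circles and squares lie above 0 except for H2AC20, H2BC9 and H3C8, and the triangles scatter around 0 with 3 called, all lower.

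Depletion of Lamin B1 in young cells did not raise the group. The 65 genes summed to 120, 132 and 125 CPM with siLMNB1 against 130, 130 and 124 CPM with the empty vector, and these ranges overlapped. Of the 28 tested members 0 rose and 3 fell at the threshold of 0.58 used for this contrast, against 10.3% and 8.06% of all tested genes. At an unadjusted p below 0.05, to which these shares do not apply, there were 7 members. DESeq2 also called 0 higher. The 3 that fell in edgeR are 10.7% of the tested members, near the 8.06% of all tested genes. The median log2 fold change was -0.11 over the members and 0.04 over all tested genes. The comparison shares its control libraries with the senescence comparison in cells carrying the empty vector.

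H2BC4 lay at 0.852, 1.24 and 1.38 CPM with siLMNB1 against 1.99, 3.41 and 3.16 CPM, without overlap (log2 -1.28 ± 0.25, adjusted p = 9.4e-04). H2BC8 lay at 1.34, 1.21 and 0.725 CPM against 1.95, 2.85 and 1.79 CPM (log2 -1.05 ± 0.29, adjusted p = 0.011). H2AC20 lay at 0.393, 0.588 and 0.659 CPM against 1.26, 1.35 and 0.781 CPM (log2 -1.03 ± 0.35, adjusted p = 0.034). Of these 3 genes H2BC4 and H2BC8 were higher in senescent cells with the empty vector, as were 20 of the 28 tested members. H2AC20 was lower in both comparisons. The second young library with the empty vector was high in all 3 genes, and without it H2AC20 and H2BC8 lost their calls, which left 1 member. The call for H2AC20 was also lost without the first young library with the empty vector or the first or second siLMNB1 library, and that for H2BC8 without the third siLMNB1 library. Without the third library with the empty vector, H2AC13 and H3C10 were called lower as well, for 5 in all. The abundant members differed little: the log2 fold change with its SE was 0.13 ± 0.11 for H2AC6, -0.09 ± 0.13 for H2BC12, 0.09 ± 0.14 for H2BC21 and 0.08 ± 0.15 for H1-2.

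Divergent neighbours did not always move together. Both genes were tested in 5 of the 13 head-to-head pairs. H2BC4 and H2AC6, which start 219 bases apart, rose alike in senescent cells with the empty vector (log2 2.35 and 2.24), as did H2BC8 and H2AC8, 233 bases apart (2.16 and 2.04). H2BC11 and H2AC11 rose with log2 fold changes of 1.77 and 1.13. H2AC25 and H2BC26 had log2 fold changes of 1.62 and 1.57, and H2BC26 was not called. H2BC21 and H2AC20, 236 bases apart in the DNA printed above, went opposite ways with the empty vector (log2 1.81 and -1.50) and with TRF2 (1.11 and -1.46). With siLMNB1, H2BC4 fell while H2AC6 had a log2 fold change of 0.13 ± 0.11, and H2BC8 fell while H2AC8 had one of 0.72 ± 0.40. The differences within pairs were not tested.

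**Figure D4:**
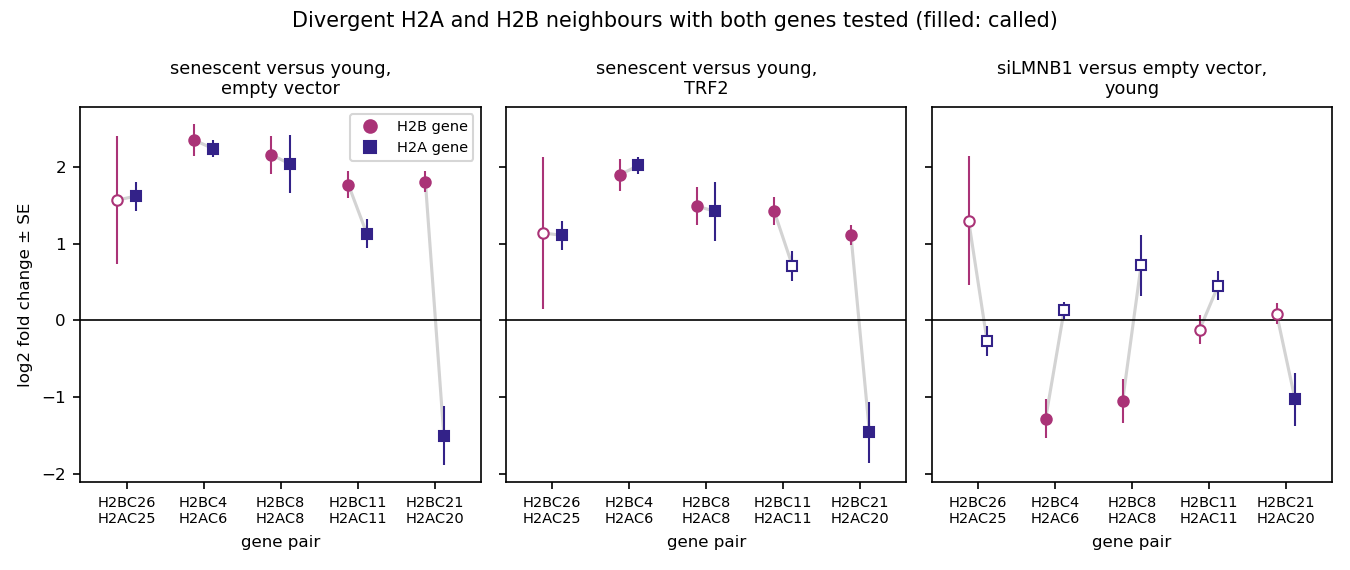
Log2 fold change with its SE (y axes) of the H2B gene (circle) and the H2A gene (square) in each of the 5 divergent pairs with both genes tested (x axes), in 3 comparisons, with filled symbols for called genes. In senescent cells the symbols of H2BC21 (log2 1.81 and 1.11) and H2AC20 (log2 -1.50 and -1.46) lie on opposite sides of 0, while those of the other pairs lie on the same side.

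The members were then grouped by where their annotated transcripts end. In 16 of the 65 genes a transcript of GENCODE 44 runs over 100 bases past the stem-loop, by 430 to 37155 bases, and in 45 genes all transcripts end 0 to 18 bases after it. The 14 tested members with a longer transcript included H2AC6, H2BC21, H2BC4, H2BC5 and H4C8, and 13 of them rose and none fell in senescent cells with the empty vector, with a median log2 fold change of 1.75. Of the 13 tested members that end at the stem-loop, among them H1-2, H2BC12 and H4C9, 7 rose and 2 fell, with a median of 1.16. With TRF2, 11 of 14 rose and none fell among the former (median 1.19), and 7 of 13 rose and 3 fell among the latter (median 1.32). The summed level of genes with a longer transcript went from 68.2 to 72.9 CPM in young to 244 to 327 CPM in senescent cells with the empty vector, and that of genes ending at the stem-loop from 54.3 to 59.5 CPM to 138 to 196 CPM. Reads were counted per gene, so the use of the longer form was not measured.

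The genes that end at the stem-loop are short and rich in G and C, and their values moved with a correction for these properties. When the fit held offsets for GC content and length, 4 of these 13 rose and 3 fell with the empty vector and the median log2 fold change was 0.14, while 13 of the 14 genes with a longer transcript rose, with a median of 1.79. H4C9 went from a log2 fold change of 1.16 to 0.18, H2AC11 from 1.13 to 0.14 and H2BC12 from 1.73 to 0.88, and all 3 lost their calls. H2AC6 had 2.65 and H4C8 2.59 with the offsets, and H1-2 kept its call at 1.00. With TRF2 5 of the 13 rose and 3 fell, with a median of 0.84. Over all 28 tested members 18 rose and 3 fell with the empty vector under these offsets.

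Most members gave few or no reads. The 37 members that were not tested had at most 21 counts in any library, and their summed level was 0.791 to 2.50 CPM in the 15 libraries. H2AC1, H2AC15, H2AC17, H2BC1, H3C4, H3C15 and H4C7 had 0 counts in all of them. H2AC18, H2AC19, H3C2 and H3C3 have no row in the table, and none of the 5752 genes of GENCODE 44 with an identifier above the highest in the table is there, these 4 included. Counts of near-identical copies are uncertain, since the counting kept uniquely mapped reads: among tested members the closest coding sequence of the same class had a median identity of 92.4%, and H4C11, H4C12 and H4C14 had an identical copy each. H2AC7 and H3C4 share most of their exonic bases with another gene of the same strand, as does H2AC17, which overlaps 40.3% of the exonic bases of H3C12. Among the 22 tested members whose exons overlap no other gene, 15 rose and 2 fell with the empty vector, 13 rose and 3 fell with TRF2, and 0 rose and 2 fell with siLMNB1. Of all tested genes that share over 20% of their exonic bases with a gene without a row, 17.5% of 463 fell by more than 3 on the log2 scale in senescent cells with the empty vector, against 1.73% of 14286 genes that share none. The sources used here do not say whether the young and the senescent libraries were counted with one annotation, and a difference in counting cannot be told apart from the senescent state in these comparisons. H2AC6 (1.62%), H4C8 (13.3%) and H2BC4 share exonic bases with genes without a row, and whether this affects their values was not tested.

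The members lie mainly in 2 clusters on chromosome 6. Of the 12 tested members at chr6:25723397-26285638, 9 rose and 1 fell in senescent cells with the empty vector, and of the 9 at chr6:27125897-27893891, 6 rose and none fell. H2AC6 is at chr6:26124145-26139116, H2BC4 at chr6:26086317-26123926, H4C8 at chr6:26277609-26285638, H1-2 at chr6:26055740-26056470, H2BC12 at chr6:27146361-27146855 and H4C9 at chr6:27139282-27139678. On chromosome 1, 3 of the 4 tested members at chr1:149782689-149887965 rose and 1 fell, H2BC21 being at chr1:149884459-149886682 and H2AC20 at chr1:149886918-149887411. At chr1:228434777-228463104 H2AC25 rose and H2BC26 was not called. H4C16, the one member on chromosome 12 (chr12:14767999-14771131), rose. These are positions of whole genes in GENCODE 44 on GRCh38.

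Genes that act with the histone genes in S phase moved the other way. Of 42 DNA replication genes, 35 fell and 0 rose in senescent cells with the empty vector (median log2 fold change -1.77), and 37 fell and 0 rose with TRF2 (median -2.09), against 11.8% and 12.1% of all tested genes lower. At an unadjusted p below 0.05 there were also 0 higher in edgeR, and DESeq2 called 0 higher. RRM2, the regulated subunit of ribonucleotide reductase, fell from 165 ± 4.63 to 21.3 ± 2.76 CPM with the empty vector (SD, n = 3, log2 -2.95, adjusted p = 4.5e-12). TYMS, which makes thymidylate, fell by 3.16 on the log2 scale, and MCM6, a subunit of the replicative helicase, by 2.15. All 11 proliferation genes fell with either vector, among them BUB1 and CDK1 with log2 fold changes of -2.76 and -2.60 with the empty vector. After siLMNB1, 21 of the DNA replication genes and 10 of the proliferation genes fell, against 8.06% of all tested genes, RRM2 from 165 to 67.7 ± 3.84 CPM, while no histone member rose.

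Few of the factors that make and handle histone mRNA passed the threshold. Of 19 genes for 3′ end processing and decay, 0 were called in senescent cells with the empty vector, by edgeR or DESeq2. Of all tested genes edgeR called 16.7% higher and 11.8% lower there. At an unadjusted p below 0.05, to which these shares do not apply, edgeR had 4 higher and 11 lower. With TRF2 0 were called by either tool, against 11.9% of all tested genes higher and 12.1% lower in edgeR. At an unadjusted p below 0.05 edgeR had 3 higher and 11 lower with TRF2. SLBP, the stem-loop binding protein, had a log2 fold change of -0.35 ± 0.08 with the empty vector, from 62.0 ± 3.58 to 48.8 ± 3.44 CPM (adjusted p = 0.00134). LSM11, a component of the U7 snRNP, had one of -0.77 ± 0.19 with the empty vector. With TRF2 the log2 fold change was -0.28 ± 0.08 for SLBP and -0.38 ± 0.19 for LSM11 (adjusted p = 0.0981). In the main edgeR fit LSM11 was the 1 gene of these 19 that fell after siLMNB1 (log2 -0.83 ± 0.19, adjusted p = 0.00349), against 8.06% of all tested genes. DESeq2 and the fit with GC and length offsets each called 2 genes of the list lower. Of 10 genes for histone gene transcription, CCNA2 and CCNE2, which encode cyclins, fell with both vectors and after siLMNB1. The shares of all tested genes that fell were 11.8% with the empty vector, 12.1% with TRF2 and 8.06% after siLMNB1. NPAT, the coactivator of histone genes, had a log2 fold change of -0.81 ± 0.17 with the empty vector, under the threshold (adjusted p = 4.9e-04), and -0.53 ± 0.16 with TRF2. CCNE2 was also lower with TRF2 than with the empty vector in senescent cells (log2 -1.12 ± 0.33).

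Of 23 tested histone chaperone genes 9 fell and 0 rose in senescent cells with the empty vector in edgeR and in DESeq2, with 3 higher at an unadjusted p below 0.05. The shares of all tested genes that fell are 11.8% there, 12.1% with TRF2, where 10 chaperone genes fell, and 8.06% after siLMNB1, where 5 fell, and 6 fell with either vector under the offsets for GC content and length. HJURP, the chaperone of CENP-A, fell from 27.7 ± 1.17 to 4.21 ± 0.724 CPM with the empty vector (log2 -2.72, adjusted p = 8.5e-12), RBBP4 by 1.15 and CHAF1B, a subunit of chromatin assembly factor 1, by 1.76 on the log2 scale. HJURP and ASF1B were lower with TRF2 than with the empty vector in senescent cells.

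Histone genes expressed outside S phase were followed as well. Of 11 tested replication-independent histone genes, 1 rose and 2 fell in senescent cells with the empty vector (median log2 fold change -0.46, against 16.7% and 11.8% of all tested genes), and 0 rose and 2 fell with TRF2. H2AJ, an H2A variant, rose from 29.6 ± 1.98 to 65.5 ± 18.3 CPM with the empty vector (log2 1.15, adjusted p = 5.1e-06) and had a log2 fold change of 0.81 with TRF2. CENPA, the H3 variant of centromeres, fell by 3.36 on the log2 scale and H2AZ1, an H2A variant found at promoters, by 1.95. After siLMNB1 4 fell, against 8.06% of all tested genes, namely H2AZ1, CENPA, MACROH2A1 and H2AZ2, with log2 fold changes of -0.85, -1.11, -0.62 and -0.61.

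**Figure D5:**
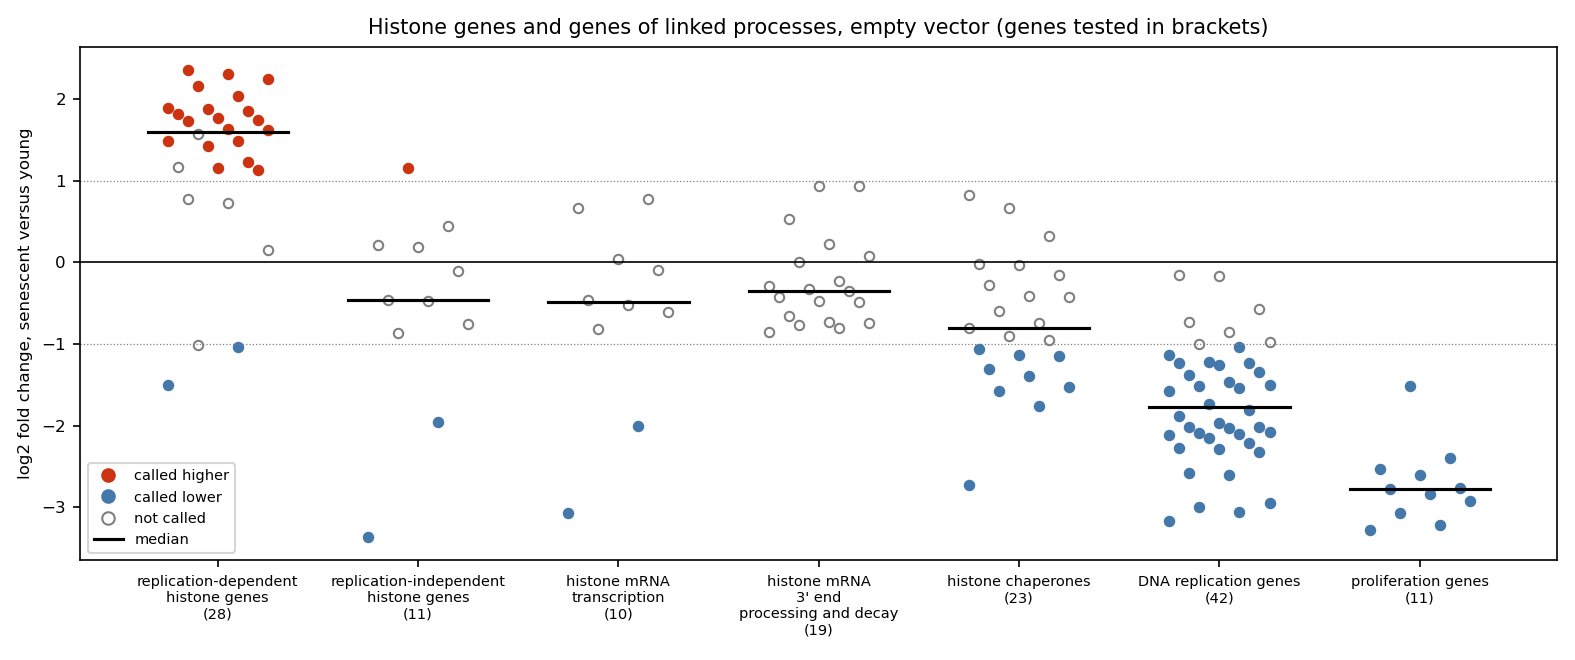
Log2 fold change in senescent versus young cells with the empty vector (y axis) for the 28 tested replication-dependent histone genes and for the tested genes of 6 lists of linked processes (x axis, number tested in brackets), with a point for each gene, red for called higher, blue for called lower and white for not called, and a black line for the median. The replication-dependent histone genes have a median of 1.59, and the 6 other lists have medians from -0.35 to -2.78.

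Among 6 genes linked to senescence, the cell cycle inhibitors CDKN2A and CDKN2B rose in senescent cells with the empty vector (log2 1.20 and 1.19). CDKN2A lay at 19.5 ± 1.32 CPM in young and 44.8 ± 14.5 CPM in senescent cells with the empty vector, and it rose with TRF2 as well (log2 1.77 ± 0.17, adjusted p = 1.5e-07), where CDKN2B was not called and IL6, an inflammatory cytokine of the list, fell from 4.10 ± 0.758 to 1.92 ± 0.0785 CPM (log2 -1.09 ± 0.19, adjusted p = 1.4e-04).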

How the data were processed

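RNA-seq counts of 15 MRC-5 libraries (5 conditions, 3 replicates, grouped by their labels) were used. Paired-end reads of 150 bases were trimmed (Trimmomatic) and aligned to GRCh38 (STAR) by the authors, who deposited raw counts of uniquely mapped reads per gene. The annotation release, strand setting and RNA selection are not given in the sources used here. Genes were named with GENCODE 44 by identifier.

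Here counts were filtered with filterByExpr, normalised with TMM and fitted with edgeR 4.0.16 (quasi-likelihood, R 4.3.3) in one model of 15 libraries. P-values were adjusted with Benjamini-Hochberg over 15799 genes. A gene was called at an adjusted p under 0.05 with a change of at least 1 on the log2 scale in either direction, or 0.58 for siLMNB1, and the interaction had no fold threshold. CPM are TMM-normalised. On simulated counts with 200 genes changed by 2 on the log2 scale in senescent versus young cells with the empty vector, 200 were recovered, with 2 false calls, among 15338 genes. The changed genes were drawn from those with a mean above 1 CPM, and a single spread was set for all genes. The simulation therefore does not cover members at lower levels or with smaller changes. Alternatives were DESeq2 1.42.0, DESeq2-like (RLE) size factors, no filter, only the libraries compared, a replicate block, GC and length offsets, no fold threshold, members without exonic overlap and leaving out each library.

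Members, gene lists and tests were chosen with earlier results of these data known. All members may be named. The 3 most abundant of each class and the 3 called members with the largest change per comparison and direction were described with values, and of each other list the called genes with the smallest adjusted p. Stem-loops were searched in the genome and promoters taken from RefSeq (GRCh38.p14). Depth was 26725885 to 43116046 counts per library, and 3 replicates limit the precision of each comparison.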

Additional observations from a re-analysis of the deposited data

How the results depend on the processing

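The number of members that rose in senescent cells was 18 to 21 with the empty vector and 17 to 21 with TRF2 under the alternatives run over all tested members, and 15 and 13 among the 22 without exonic overlap, and none of the 46 member calls changed its sign. Of the 550 values of these calls under the alternatives in which the gene was tested, 512 kept the call and 38 lost it. The number that fell with the empty vector, 2, was 1 with the replicate block and with only the libraries compared. It was 3 with the GC and length offsets, and 1 to 2 when 1 library was left out. The number that fell with TRF2, 3, was 2 with the replicate block and with only the libraries compared, and 1 to 3 when 1 library was left out. It was 4 without the filter, which added H2AC14, and 3 with DESeq2, where H2AC14 took the place of H3C8. The number that fell with siLMNB1, 3, was 5 with DESeq2, 5 with the GC and length offsets and 1 to 5 when 1 library was left out. Without a fold threshold 3 members were lower with TRF2 in senescent cells, a count with no share of all tested genes beside it. The interaction, with 0 calls, had 2 with DESeq2, 1 without the filter and 0 to 3 when 1 library was left out. Except for the offsets, whose construction takes out trends with GC content and length, the cause of these shifts was not tested. Same-numbered libraries of different conditions deviated together in 2 of 30 pairs (r over 0.1, range -0.09 to 0.20), so the numbers were not taken to pair the libraries, and the block result is an alternative fit. It ended the calls of H2BC9 with the empty vector, H3C8 with TRF2 and H2AC20 with siLMNB1, which left 1, 2 and 2 members lower, and no other member call. Low counts limit H2BC6, H2BC18, H2BC26, H3C8, H4C5, H4C11, H4C12, H4C14 and H4C16, which had 15 counts or fewer in all 3 young libraries carrying the empty vector.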
